A study of Sus scrofa with 12 samples.

Results

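Marker genes of basophils and eosinophils were followed across pig blood libraries, namely *FCER1A*, *CPA3*, *IL5RA*, *ALOX15* and *EPX*. They were chosen by name, with earlier results of these data known, and all 5 were among the 7480 gene symbols measured. The 12 libraries are, according to their labels, of peripheral blood mononuclear cells from Duroc × Landrace × Yorkshire piglets aged 4 weeks, taken 12 h after treatment. They fall into 3 groups of 4 libraries: untreated control, Salmonella (Salmonella Typhi in the series text), and a miR-124 sponge together with Salmonella. A microRNA sponge carries binding sites that draw the microRNA away from its targets. For the third group only the sample descriptions and treatment labels speak of a sponge, while its titles and columns read miR-124 with Salmonella. The series text speaks of 20 piglets but ties no library to an animal, so the p-values measure the spread between these libraries, which may be technical.

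Basophils and eosinophils are rare granulocytes of the blood that act in allergy and in defence against parasites. Basophils carry the high-affinity IgE receptor, which binds IgE through its alpha chain (FCER1A) and signals through beta and gamma chains. Their relatives, the mast cells, store carboxypeptidase A3 (CPA3) in their granules, and basophils hold its message too. Eosinophils depend on interleukin 5, bound by the receptor alpha chain IL5RA. They make 15-lipoxygenase (ALOX15), which oxidises arachidonic acid, and eosinophil peroxidase (EPX), a granule enzyme that forms hypobromous acid. Basophils separate with mononuclear cells on a density gradient, whereas most eosinophils are denser and are left behind. Most of these genes do not belong to 1 cell type alone: dendritic cells also make FCER1A, basophils also make IL5RA, and alternatively activated macrophages and reticulocytes can make ALOX15.

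All values below are the deposited values, which are on a log scale taken as base 2. A difference of 1 is then a doubling. No source used here says how reads were counted or normalized, and library depth is unknown. Median values per library ran from 5.11 to 5.31. Between 65.1% and 71.4% of the values in columns of the sponge group were shared by several genes, and at most 0.0802% in the other 8 columns, so treatment and this property of the columns cannot be told apart. As a floor, 191 symbols were picked by the start of their names. They were odorant and taste receptors, hair keratin partners, beta-defensins, and symbols starting with SPATA, PRAMEF, MAGEA or CTAG. Whether each of them is silent in blood cells was not checked. They had a mean of 4.64, a median of 4.54 and a 95th percentile of 5.29. Values near or under 5.29 are called silent level here, and fold sizes that rest on them are uncertain. Only 60 of the 191 could be matched to a pig gene. A gene was called where limma, a linear model with moderated variances, gave an adjusted p below 0.05 (Benjamini-Hochberg, all 7480 genes). Levels of different genes are not compared, since nothing shows that the values are scaled to gene length.

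Values of all 5 genes were lower in Salmonella than in control libraries, although *EPX* was at silent level in all 12 libraries. *FCER1A* was 8.13-fold lower and *ALOX15* 7.07-fold lower, followed by *IL5RA* at 3.42-fold, *CPA3* at 2.39-fold and *EPX* at 1.47-fold. With the sponge, *FCER1A* and *ALOX15* stood between the other groups, while *IL5RA* and *CPA3* were not called different from Salmonella alone. Only *FCER1A* was far above silent level in every library. In bulk samples, fewer cells of a type and less RNA per cell cannot be told apart.

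**Figure D1:**
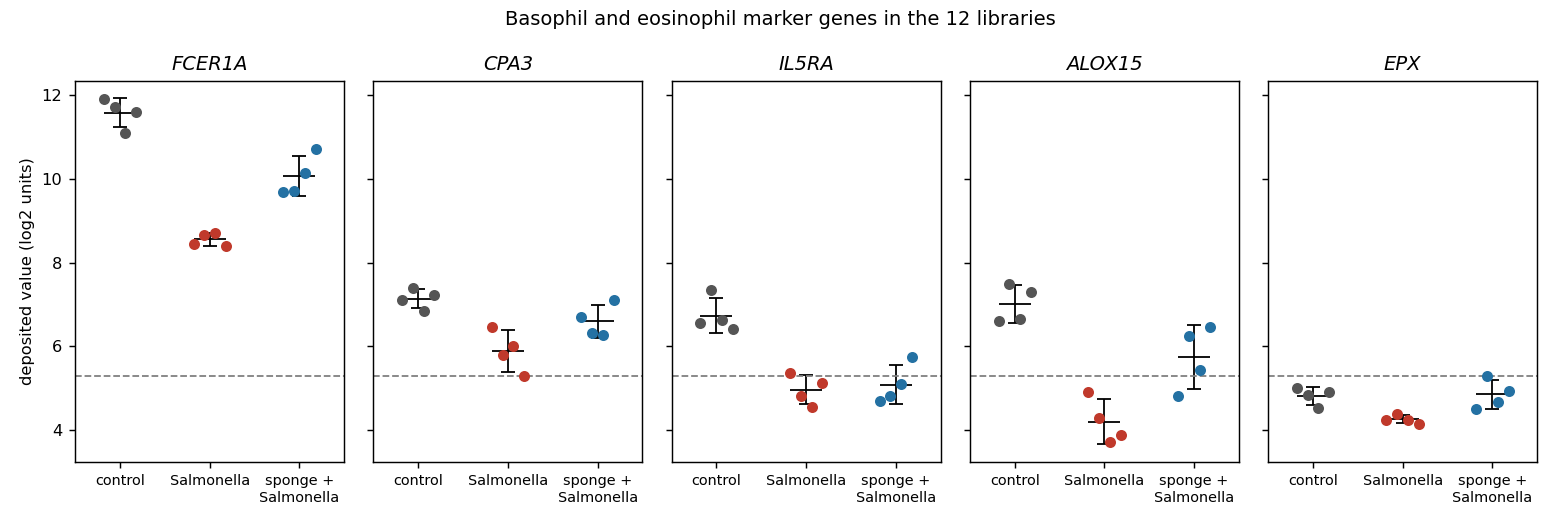
Deposited value of each marker gene (vertical axis, log2 units) in the 4 libraries of each group (points), with the group mean and SD (bars), against the 95th percentile of the silent set at 5.29 (dashed line). *FCER1A* lies far above the line in all 12 libraries and forms 3 separate bands, while *EPX* lies at or under the line in all 12.

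*FCER1A*, on chromosome 4 from 91118867 to 91125448 in Sscrofa11.1, encodes the IgE-binding chain. Its value was 11.90, 11.73, 11.096 and 11.60 in control replicates 1 to 4. In Salmonella replicates 1 to 4 it was 8.44, 8.67, 8.72 and 8.40. These 4 libraries lay close together and far under every control library. With the sponge and Salmonella it was 9.70, 9.72, 10.15 and 10.72, above every Salmonella library and under every control library. The fall with Salmonella was -3.02 ± 0.22 (SE, n = 4 per group, limma adjusted p = 7.35e-07). With the sponge the value was higher than with Salmonella alone by 1.51 ± 0.22 (limma adjusted p = 4.82e-04) and lower than in control (-1.51 ± 0.22, limma adjusted p = 2.24e-04). No pair of groups overlapped, and the 3 differences held under every alternative tried.

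*CPA3*, on chromosome 13 from 89093296 to 89132088, encodes the granule carboxypeptidase. Control replicates 1 to 4 held 7.11, 7.40, 6.84 and 7.22. Salmonella replicates 1 to 4 held 6.48, 5.79, 6.002 and 5.28, all under the lowest control. Sponge plus Salmonella replicates 1 to 4 held 6.69, 6.32, 6.28 and 7.11, and this group overlapped both others. The fall with Salmonella was -1.26 ± 0.27 (SE, n = 4 per group, limma adjusted p = 0.00246). The sponge group was neither called against Salmonella alone (0.71 ± 0.27, limma adjusted p = 0.0648) nor against control (-0.54 ± 0.27, limma adjusted p = 0.120). The 95% confidence interval of the first of these differences was 0.14 to 1.29, and of the second -1.12 to 0.03. Salmonella replicate 1, the highest of its group, decided the first: without it the difference was 0.91 (limma adjusted p = 0.0194). Centring each library on its median made the second a call (-0.66, limma adjusted p = 0.0470).

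*IL5RA*, on chromosome 13 from 59651184 to 59692211, encodes the receptor chain that binds interleukin 5. Its control values were 6.55, 7.34, 6.62 and 6.42 in replicates 1 to 4. They were 5.36, 4.81, 4.56 and 5.11 with Salmonella and 4.69, 4.80, 5.10 and 5.75 with the sponge and Salmonella. The treated groups covered nearly the same range, both under the lowest control, and 3 of 4 libraries in each were at silent level. *IL5RA* fell by 1.78 ± 0.29 with Salmonella (SE, n = 4 per group, limma adjusted p = 3.29e-04) and was lower than control with the sponge (-1.65 ± 0.29, limma adjusted p = 6.01e-04). Between the treated groups the difference was 0.13 ± 0.29 (limma adjusted p = 0.768), with a 95% confidence interval of -0.49 to 0.74. A rise as large as that of *FCER1A*, 1.51, lies outside this interval, although silent level compresses differences. In the sponge columns the *IL5RA* value was shared with 1 to 7 other genes, as was common in those columns.

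*ALOX15*, on chromosome 12 from 52287174 to 52295873, encodes the lipoxygenase. Control replicates 1 to 4 were at 6.62, 7.50, 6.66 and 7.29. Salmonella replicates 1 to 4 were at 4.92, 4.28, 3.71 and 3.87, all at silent level and 3 of them under the silent mean. Sponge plus Salmonella replicates 1 to 4 were at 4.83, 6.25, 5.45 and 6.47, the widest spread of any member in any group (SD 0.76). Replicate 1 of that group lay within the Salmonella range, and the other libraries lay between the Salmonella and control groups. *ALOX15* fell by 2.82 ± 0.37 with Salmonella (SE, n = 4 per group, limma adjusted p = 5.71e-05). With the sponge it was higher than with Salmonella alone by 1.55 ± 0.37 (limma adjusted p = 0.00825) and lower than in control (-1.27 ± 0.37, limma adjusted p = 0.0141). For the first of these the exact two-sided permutation test gave p = 0.0571, where 0.0286 is the smallest that 4 against 4 allows. Adding 16 on the linear scale, which damps values near silent level, reduced it to 1.03 (limma adjusted p = 0.0161).

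*EPX*, on chromosome 12 from 34486139 to 34498879, encodes the peroxidase. It was at silent level in all 12 libraries, so its sizes carry little weight. Control replicates 1 to 4 read 4.99, 4.83, 4.52 and 4.92. Salmonella replicates 1 to 4 read 4.25, 4.39, 4.24 and 4.16, under the lowest control. Sponge plus Salmonella replicates 1 to 4 read 4.50, 5.28, 4.68 and 4.93, within reach of control and above every Salmonella library. *EPX* fell by 0.56 ± 0.15 (SE, n = 4 per group, limma adjusted p = 0.0105), was higher with the sponge than with Salmonella alone by 0.59 ± 0.15 (limma adjusted p = 0.0116), and differed from control with the sponge by 0.03 ± 0.15 (limma adjusted p = 0.872; 95% confidence interval -0.29 to 0.36). With 16 added on the linear scale the first 2 became -0.33 and 0.36 and were still called.

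**Figure D2:**
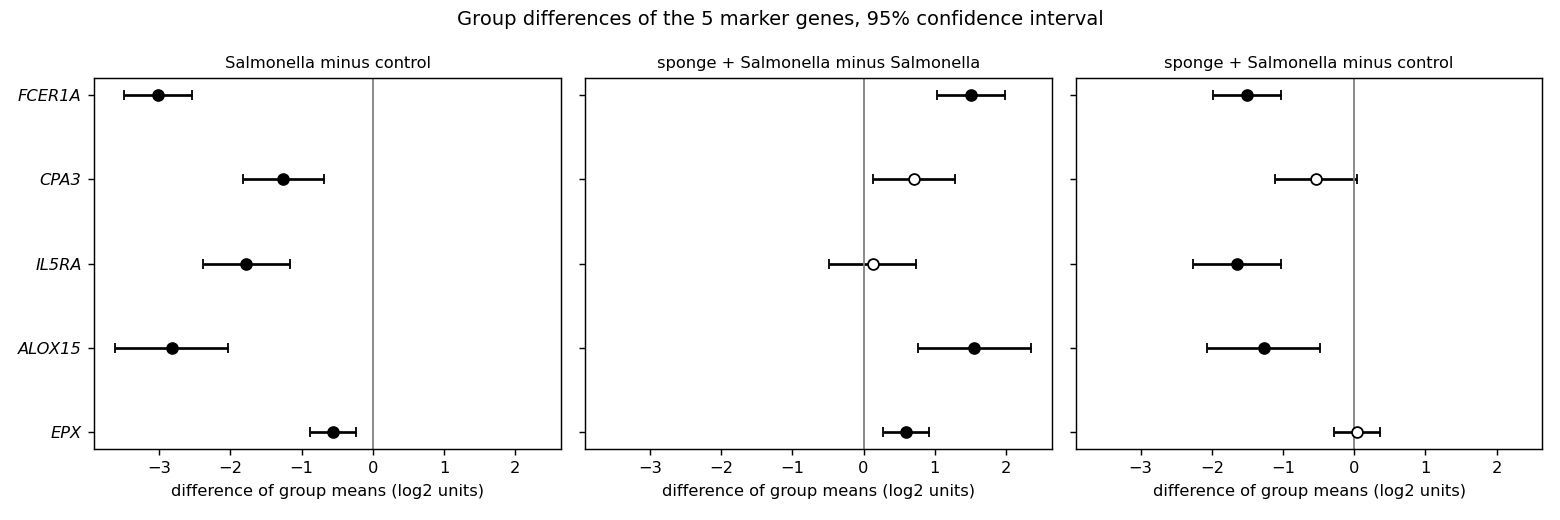
Differences of group means (horizontal axis, log2 units) with 95% confidence intervals from limma, for the 3 comparisons. Filled points are called and open points are not; all 5 genes are filled and left of 0 for Salmonella minus control, and *IL5RA* is the member whose point lies closest to 0 for sponge plus Salmonella minus Salmonella.

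Read against the whole table, the 5 falls with Salmonella belong to a large response. All 5 genes were called lower, where 17.9% of the 7480 genes were, and in all 5 the groups did not overlap, as in 19.9% of genes in that direction. Centring libraries on their medians changed the split over all genes from 1175 higher and 1338 lower to 965 and 1778. With the sponge against Salmonella alone 3 of 5 were called higher, where 11.9% of genes were. In *FCER1A* and *EPX* the groups did not overlap, as in 10.6% of genes. Against control, the sponge group was called lower in 3 of 5, where 23.0% of genes were. Here the groups of *FCER1A*, *IL5RA* and *ALOX15* did not overlap, as in 22.5% of genes, and centring turned the split over all genes from 1336 higher and 1721 lower to 1062 and 2569. That centring moved the median difference of all genes by -0.12. In the direction opposite to the members 15.7%, 13.2% and 17.9% of genes were called in the 3 comparisons, and in either direction 33.6%, 25.0% and 40.9%. These comparisons share libraries and are not independent of each other. The members were chosen with earlier results of these data known, so the shares are given for scale and test nothing. *EPX*, at silent level in every library, is among the members counted.

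Whether the members differed in how the sponge group stood against Salmonella alone was tested within libraries, a test chosen after the values were seen. The value of 1 gene minus that of another was compared between the groups for all 10 pairs. *FCER1A* minus *IL5RA* was 4.99 ± 0.05 with the sponge and 3.60 ± 0.50 with Salmonella alone (SD, n = 4; exact two-sided permutation p = 0.0286, adjusted over the 10 pairs p = 0.114). *ALOX15* minus *IL5RA* differed in the same way, since *IL5RA* minus *ALOX15* was -0.66 ± 0.58 with the sponge and 0.77 ± 0.36 without (SD, n = 4; exact permutation p = 0.0286, adjusted p = 0.114). In both pairs the 4 values of the groups did not overlap, at the smallest p this design allows, and neither passed after adjustment. At that smallest p a pair could pass only if most of the 10 pairs reached it, so not passing says little. *IL5RA*, which is in both pairs, was at silent level in 3 of 4 libraries of each treated group. *FCER1A* minus *ALOX15* was 4.33 ± 0.62 with the sponge and 4.37 ± 0.62 without (SD, n = 4; exact permutation p = 0.914).

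The members varied together across libraries, as a description without a test. Over the 12 libraries Pearson correlations of the 10 pairs ran from 0.376 for *IL5RA* with *EPX* to 0.918 for *FCER1A* with *ALOX15*, which include the differences between groups. After subtraction of the group means they ran from 0.015, again for *IL5RA* with *EPX*, to 0.646 for *IL5RA* with *ALOX15*. Sponge plus Salmonella replicate 4 was the highest of its group for 4 members and replicate 1 the lowest for 4 members. Without replicate 4 the difference from Salmonella alone was 1.30 for *FCER1A* and 1.31 for *ALOX15*, and both were still called. Salmonella replicate 1 was the highest of its group for 3 members and replicate 4 the lowest for 3, and control replicate 2 was the highest for 3 and replicate 3 the lowest for 3.

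The genes of the table most like each member over the 12 libraries were named by the highest Pearson correlation. For *FCER1A* they were *ZNF395* (0.982), the ribosomal protein gene *RPL4* (0.979) and *KLHL22* (0.975). For *CPA3* they were *ACOT11* (0.916), *BEX2* (0.913) and *UBE4B* (0.909), and for *IL5RA* *CAPS* (0.964), *AFG3L2* (0.941) and *ACTR1B* (0.939). *ALOX15* was matched best by *SPNS3* (0.953), by the proteasome activator gene *PSME4* (0.942) and by *OLIG1* (0.931), a transcription factor gene of the eosinophil list below. *EPX* was matched by *PTH2* (0.895), *CDH1* (0.880) and *MSX2* (0.873), whose mean values were between 4.24 and 4.83 in all groups and thus at silent level too.

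Other genes of these lineages were listed as well. Of 24 eosinophil genes listed, 11 were measured, 3 of them members, and *EPX*, *PRG3* and *HRH4* were at silent level in all 12 libraries. Of the 8 that are not members, 4 were called lower with Salmonella and 0 higher (median difference -0.53, against -0.02 over all genes). These were the transcription factor genes *OLIG1* (-2.94 ± 0.45, SE) and *CEBPE* (-1.56 ± 0.35), the adenosine receptor gene *ADORA3* (-1.49 ± 0.34) and *SMPD3* (-0.90 ± 0.27), named after their values were seen. CEBPE drives the late steps of granulocyte maturation. The call of *SMPD3* ended without control replicate 2 (limma adjusted p = 0.0598). With the sponge 5 of the 8 were lower than in control and 0 higher (median -1.21, against -0.07 over all genes), namely *CEBPE* (-2.32 ± 0.35), *OLIG1* (-1.97 ± 0.45), *ADORA3* (-1.72 ± 0.34), *RNASE3* (-2.17 ± 0.64) and *GATA1* (-0.69 ± 0.25). Of the 11 measured, 7 had means at or under 5.29 in each treated group, against 3 in control. Among these were *ADORA3* (5.17 with Salmonella, 4.95 with the sponge), *CEBPE* (4.93 with the sponge) and *SMPD3* (4.57 with Salmonella). Those falls end at silent level, so their sizes are uncertain. *GATA1* encodes the factor that sets the eosinophil and erythroid lineages. Its call ended without sponge plus Salmonella replicates 1, 3 or 4 or control replicates 2 or 4 (limma adjusted p 0.0529 to 0.123) and with a replicate block (limma adjusted p = 0.0661), and that of *RNASE3* without control replicate 2 (limma adjusted p = 0.0505).

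None of these 8 eosinophil genes was called higher by limma with the sponge than with Salmonella alone, and 1 was higher at an unadjusted p below 0.05. *CEBPE* read 6.16, 4.98, 5.10 and 6.53 in Salmonella replicates 1 to 4 and 4.40, 5.04, 4.86 and 5.41 with the sponge, so the groups overlapped and the difference (-0.76 ± 0.35, SE) was not called (limma adjusted p = 0.116). *OLIG1* lay on the other side: it read 6.70, 5.74, 4.79 and 6.21 in Salmonella replicates 1 to 4 and 5.47, 6.98, 7.28 and 7.58 with the sponge. These groups overlapped too, and the difference (0.97 ± 0.45) was not called (limma adjusted p = 0.124), nor was that of *SMPD3* (0.57 ± 0.27, limma adjusted p = 0.135). *RNASE3*, which encodes eosinophil cationic protein, was the 1 gene called, and it was lower (-2.70 ± 0.64, limma adjusted p = 0.00774). It read 9.73, 6.53, 8.51 and 10.38 in Salmonella replicates 1 to 4, a wide spread, and 5.85, 6.26, 5.86 and 6.37 with the sponge. No test compared these genes with the members.

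Of 23 basophil and mast cell genes listed, 7 were measured, and *HPGDS*, the prostaglandin D synthase, was at silent level in every library. Among the 5 that are not members, 1 was called higher and 0 lower with Salmonella (median 0.17; 2 higher and 1 lower at an unadjusted p below 0.05 in limma). This was *FCER1G*, the gamma chain through which the IgE receptor signals, which monocytes and other cells use for their Fc receptors as well. It read 11.84, 11.75, 11.09 and 11.92 in control replicates 1 to 4, and 12.73, 13.63, 13.40 and 13.79 in Salmonella replicates 1 to 4. With the sponge it read 12.16, 11.69, 11.28 and 11.68. The alpha and gamma chain genes thus moved in opposite directions: *FCER1G* rose by 1.74 ± 0.25 with Salmonella (SE, n = 4 per group, limma adjusted p = 1.1e-04) and was lower with the sponge than with Salmonella alone (-1.68 ± 0.25, limma adjusted p = 4.55e-04). *GATA2*, a transcription factor gene of basophils and mast cells, had means of 5.31, 4.73 and 5.45 in the control, Salmonella and sponge plus Salmonella groups and was called in none of the 3 comparisons. Its difference between the treated groups was called without sponge plus Salmonella replicates 1 or 2 or Salmonella replicate 2 (limma adjusted p 0.0313 to 0.0427). With the sponge against control the mast cell chymase gene *CMA1* was called lower (-0.68 ± 0.20).

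**Figure D3:**
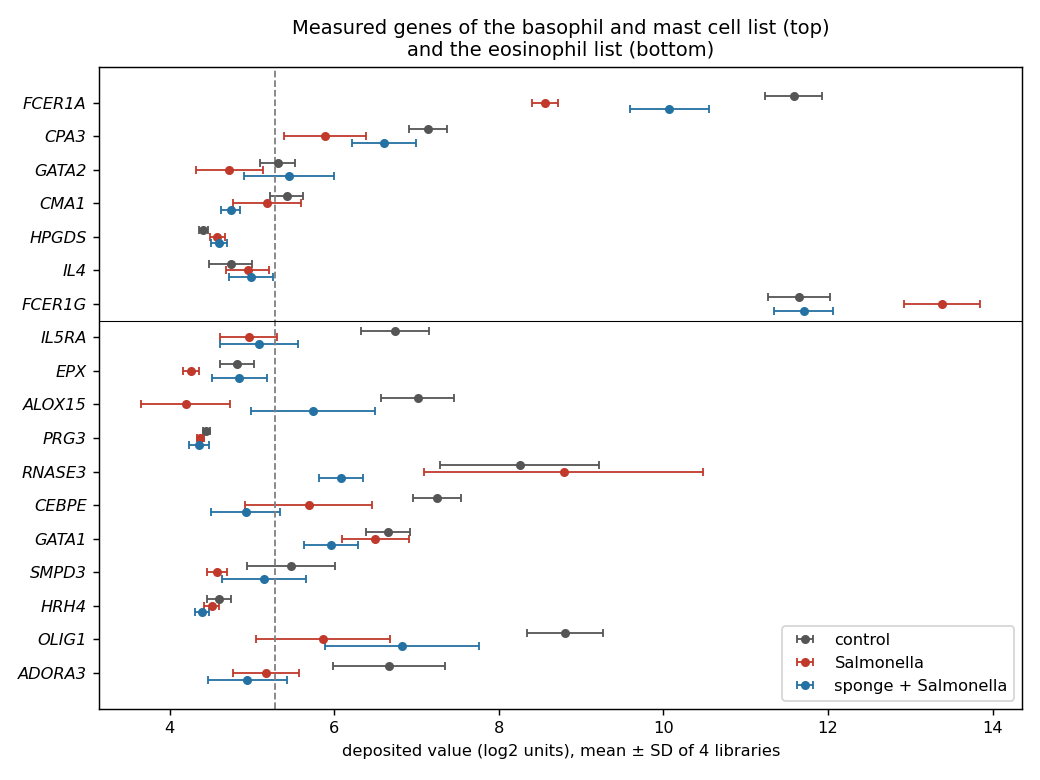
Mean and SD over 4 libraries (horizontal axis, log2 units) of each measured gene of the basophil and mast cell list (above the line) and the eosinophil list (below it), by group; the dashed line marks 5.29, the 95th percentile of the silent set. *FCER1A* and *FCER1G* are displaced in opposite directions in Salmonella libraries, and *RNASE3* has its lowest mean with the sponge.

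Pathway genes around each member were listed with earlier results of these data known, and each list is given by its counts. For IgE receptor signalling 13 of 29 genes were measured; apart from *FCER1A*, 4 rose with Salmonella and 0 fell (median 0.39; 6 higher and 1 lower at an unadjusted p below 0.05 in limma). The call of the fourth, *SOS1* (0.93 ± 0.28, SE), ended without control replicate 3 (limma adjusted p = 0.0613). Those with the smallest p were *FCER1G*, the Src-family kinase gene *LYN* (1.25 ± 0.20, SE) and the kinase gene *BTK* (0.79 ± 0.16). Relative to Salmonella alone, under the sponge 3 were higher and 4 lower (median -0.15), led by *FCER1G*, the phospholipase gene *PLCG1* (2.02 ± 0.30) and the adaptor gene *GAB2* (0.66 ± 0.12). Against control 6 were higher and 2 lower (median 0.53), led by *PLCG1* (2.38 ± 0.30), *PIK3R1* (1.73 ± 0.30) and *GAB2* (0.54 ± 0.12). *PLCG1* had a control mean of 3.95 and a Salmonella mean of 4.30, both at silent level, as were those of *PIK3R1*, 4.17 and 4.39, and *GAB2* was at silent level in all 12 libraries.

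For the receptors of interleukin 5, interleukin 3 and GM-CSF 10 of 19 genes were measured. Apart from *IL5RA*, 3 rose and 3 fell with Salmonella (median -0.08), led by *STAT5A* (1.44 ± 0.16, SE), the survival gene *BCL2* (-1.46 ± 0.19) and *LYN*. *CSF2RB*, the beta chain with which IL5RA forms the working receptor, moved opposite to it, and is named here after its values were seen. It read 4.80, 4.61, 4.55 and 5.22 in control replicates 1 to 4 and 5.68, 7.01, 6.71 and 6.07 with Salmonella, with no overlap and a rise of 1.57 ± 0.33 (limma adjusted p = 0.0022). The control values are at silent level. With the sponge against Salmonella 2 were higher and 2 lower (median -0.03), led by *BCL2* (1.57 ± 0.19), the kinase gene *JAK1* (0.97 ± 0.16) and *LYN* (-0.73 ± 0.20). The call of *LYN* ended without sponge plus Salmonella replicate 4 (limma adjusted p = 0.0607) or Salmonella replicate 4 (limma adjusted p = 0.0591). At an unadjusted p below 0.05 in limma 4 were higher and 1 lower than in control. Of these 3 were called higher and 0 lower after adjustment (median 0.11): *STAT5A* (0.95 ± 0.16), *JAK1* (0.81 ± 0.16) and *CSF2RB* (1.06 ± 0.33). The call of *CSF2RB* ended without sponge plus Salmonella replicates 2 or 3 (limma adjusted p 0.0588 to 0.0631).

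Of 34 genes that make or sense eicosanoids, the family of lipids to which ALOX15 products belong, 19 were measured. Apart from *ALOX15*, 3 of 18 rose and 4 fell with Salmonella (median -0.04), near the 15.7% and 17.9% of all genes that did. The inducible cyclooxygenase gene *PTGS2* rose by 2.08 ± 0.29 (SE), while *GPX4* (-1.11 ± 0.17), which reduces lipid peroxides, and the prostaglandin E synthase gene *PTGES2* (-0.96 ± 0.18) fell. The control mean of *PTGS2* was 5.28, at silent level. With the sponge, set against Salmonella alone, 2 were higher and 3 lower (median 0.07), led by the leukotriene A4 hydrolase gene *LTA4H* (-1.07 ± 0.22), *GPX4* (0.77 ± 0.17) and the prostaglandin receptor gene *PTGER4* (0.80 ± 0.24). The call of *PTGER4* ended without sponge plus Salmonella replicate 1 or Salmonella replicates 3 or 4 (limma adjusted p 0.0587 to 0.0760). Against control 4 were higher and 3 lower (median 0.05), led by *PTGES2* (-1.44 ± 0.18), *PTGS2* (1.93 ± 0.29) and the epidermal lipoxygenase gene *ALOXE3* (-1.05 ± 0.26).

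Of 10 haem peroxidase and related genes 6 were measured, 5 of them besides *EPX*. With Salmonella 3 rose and 1, *DUOX1*, was lower (median 1.08), led by *PTGS2*, *PXDN* (1.15 ± 0.26, SE) and *MPO* (1.08 ± 0.36), the neutrophil and monocyte peroxidase. Their control means were 5.28 for *PTGS2*, 4.25 for *PXDN* and 5.44 for *MPO*. These means are at or near silent level, so the sizes of the rises are uncertain. *MPO* lies 58.2 kb from *EPX*, on chromosome 12 from 34557031 to 34570091, and moved the other way. Its call ended without Salmonella replicate 4 or control replicates 1, 3 or 4 (limma adjusted p 0.0745 to 0.0878). The call of *DUOX1* (-0.38) ended without any 1 of the 8 libraries compared (limma adjusted p 0.0587 to 0.107). Relative to Salmonella alone, under the sponge 0 of the 5 were called by limma, and 1 was lower at an unadjusted p below 0.05. Against control 2 were higher and 1 lower (median 0.11), namely *PTGS2*, *PXDN* (1.12 ± 0.26) and *DUOX1* (-0.57 ± 0.13), the last at silent level in all libraries.

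Of 20 metallocarboxypeptidase genes, the family of CPA3, 9 were measured, and *CPB1*, *CPO*, *CPN1* and *CPZ* were at silent level throughout. Apart from *CPA3*, *CPD* rose with Salmonella (0.98 ± 0.18, SE) and *CPB2* fell (-0.44 ± 0.14). *CPD* encodes a carboxypeptidase of the secretory route in most cells, and it was also higher with the sponge than in control (1.12 ± 0.18). The call of *CPB2* ended without Salmonella replicate 3 (limma adjusted p = 0.0554) or control replicate 3 (limma adjusted p = 0.0572). With the sponge *CPN1* was lower and *CPO* higher than in either other group, by at most 0.35 at silent level. With the libraries centred on their medians *CPO* was called against neither group (limma adjusted p 0.0887 and 0.154). Against Salmonella alone its call also ended without sponge plus Salmonella replicates 1 or 2 or Salmonella replicates 1, 2 or 3 (limma adjusted p 0.0592 to 0.0915).

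Of 24 transcription factor genes of myeloid and erythroid lineages 14 were measured, and 4 rose and 4 fell with Salmonella (median -0.28). *SPI1*, which directs monocyte and macrophage fate, rose by 1.93 ± 0.21 (SE), and *CEBPB* by 1.09 ± 0.19. *XBP1*, needed for eosinophil and plasma cell development, fell by 1.04 ± 0.17. With the sponge against Salmonella 1 was higher and 3 lower (median -0.37), led by *CEBPB* (-1.001 ± 0.19), the GATA cofactor gene *ZFPM1* (-0.74 ± 0.22) and *ID2* (1.48 ± 0.46). The call of *ZFPM1* ended without sponge plus Salmonella replicate 3 or Salmonella replicates 2 or 4 (limma adjusted p 0.0529 to 0.0649). That of *ID2* ended without sponge plus Salmonella replicates 2, 3 or 4 or Salmonella replicates 2, 3 or 4 (limma adjusted p 0.0501 to 0.0952). Against control 2 were higher and 6 lower (median -0.45), led by *CEBPE*, *SPI1* (1.26 ± 0.21) and *ID2* (2.74 ± 0.46).

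Markers of other blood cells moved with the same groups, and their part in the values of the 5 genes was not tested. The shares over all genes are again 15.7% higher and 17.9% lower with Salmonella. Between the treated groups they are 11.9% higher and 13.2% lower with the sponge, and against control 17.9% and 23.0%. Monocyte genes, of which 8 of 14 were measured, had library means of 7.93 to 8.60 in control, 9.78 to 10.05 with Salmonella and 8.98 to 9.50 with the sponge, and 6 of 8 rose with Salmonella. The T cell list (14 of 20 measured) went from 9.02 to 9.30 in control to 7.60 to 8.15 with Salmonella and 8.37 to 8.97 with the sponge. In that list 13 of 14 fell with Salmonella and 12 were higher with the sponge than with Salmonella alone. *FCER1A* thus shared its order of groups, highest in control and lowest with Salmonella, with the T cell list and with the B cell list (5 of 14 measured; 8.13 to 8.76, 6.80 to 7.18 and 7.88 to 8.42). The list of NK and cytotoxic cells (7 of 14) ran from 9.67 to 10.36, 8.33 to 9.23 and 8.51 to 9.17, so its treated groups overlapped, as those of *IL5RA* did. By group means its order was still that of *FCER1A* (10.07 in control, 8.68 with Salmonella and 8.90 with the sponge). The same order held for the dendritic list described below (6.99, 6.39 and 6.72), whose treated groups overlapped too.

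Dendritic cells, the other blood source of FCER1A, were covered by 10 of 19 genes. Their library means were 6.96 to 7.03 in control, 6.24 to 6.70 with Salmonella and 6.59 to 6.85 with the sponge. With Salmonella 4 fell and 0 rose (median -0.25), namely *CD1E*, *CCR7*, *TCF4* and *TLR9*. With the sponge against Salmonella 4 were higher and 0 lower (median 0.33), namely *CD1E*, *CCR7*, *IRF4* and *SPIB*, so the sets differ in part. *IRF4* and *SPIB* were not called with Salmonella (0.33 ± 0.36 and 0.20 ± 0.28, SE). With the sponge both were higher than in control (1.38 ± 0.36 and 1.51 ± 0.28), unlike *FCER1A*. *CD1E*, a lipid-presenting molecule of dendritic cells named after its values were seen, fell by 2.18 ± 0.21 (SE, limma adjusted p = 3.8e-06) to silent level. It was higher with the sponge by 0.66 ± 0.21, a call that ended without sponge plus Salmonella replicates 1, 2 or 4 or Salmonella replicates 2 or 4 (limma adjusted p 0.0581 to 0.0941), and also with 16 added on the linear scale (0.43, limma adjusted p = 0.0583). Against control, with the sponge 5 of the 10 were lower and 2 higher (median -0.54), and *FCER1A* was lower in that comparison too. Among the 5 was *CCR7* (-0.84 ± 0.30). That call ended without sponge plus Salmonella replicates 1, 2 or 3 or control replicates 1, 2 or 3 (limma adjusted p 0.0649 to 0.124). The call of *CCR7* between the treated groups (0.96 ± 0.30) ended without sponge plus Salmonella replicates 3 or 4 or Salmonella replicates 1, 2 or 4 (limma adjusted p 0.0633 to 0.102). *CCR7*, a homing receptor that T cells carry too, fell by 1.80 ± 0.30 with Salmonella, and *IRF8* had group means of 11.26, 10.83 and 10.66 in the control, Salmonella and sponge plus Salmonella groups and was called lower with the sponge than in control (-0.60 ± 0.18).

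Neutrophil genes (11 of 20 measured) had overlapping ranges, 7.35 to 7.85 in control, 7.50 to 8.53 with Salmonella and 7.01 to 7.67 with the sponge, with 2 higher and 2 lower with Salmonella. In that list *S100A9* had group means of 13.71, 13.70 and 13.64, *MMP9* of 9.18, 9.20 and 8.53, and *MMP8* was at silent level throughout. Platelet genes (7 of 13) ran from 7.67 to 7.96, 8.28 to 8.80 and 8.47 to 8.85, and 5 of 7 rose with Salmonella. Red cell genes (6 of 13) ran from 8.88 to 9.32, 9.30 to 9.95 and 7.78 to 9.40, and the globin gene *HBA2* had group means of 13.81, 13.94 and 14.53. Under the sponge, compared with Salmonella alone, 3 red cell genes were lower and 0 higher, while *ALOX15* was higher. The 3 were *AHSP* (-1.79 ± 0.47, SE), *ALAS2* (-1.64 ± 0.47) and *SLC4A1* (-1.08 ± 0.29). At an unadjusted p below 0.05 in limma 1 red cell gene, *HBA2*, was higher (0.59 ± 0.22).

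**Figure D4:**
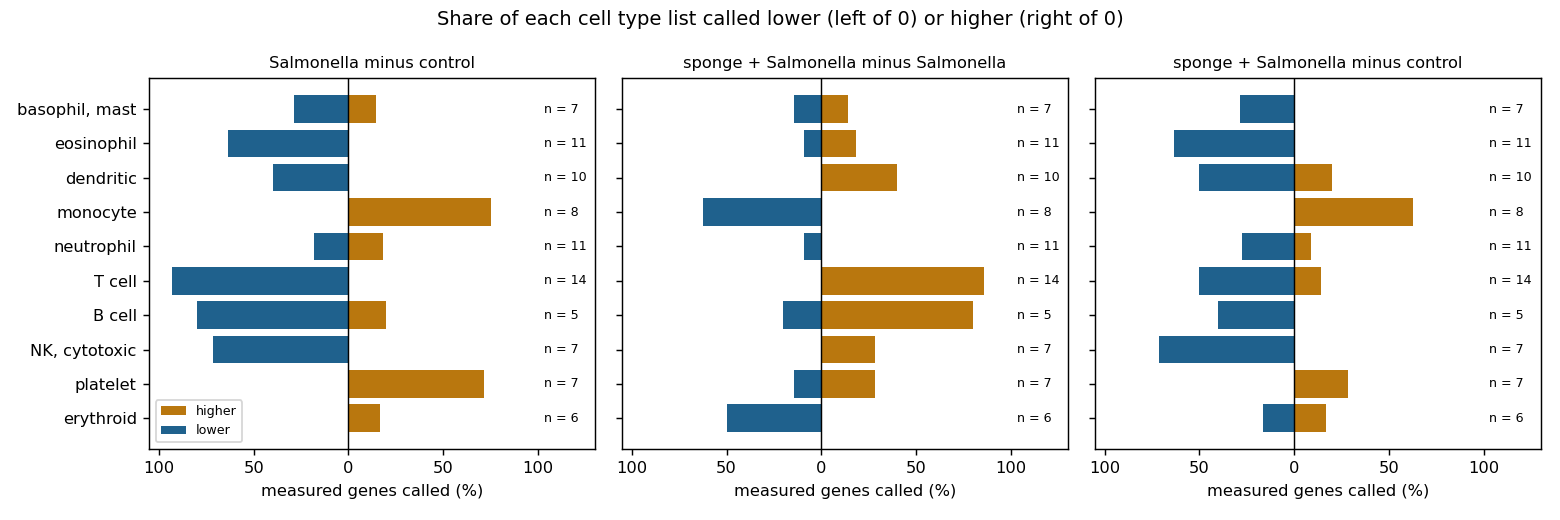
Share of the measured genes of each cell type list called lower (bars left of 0) or higher (bars right of 0) in each comparison, in percent, with the number measured at the right. With Salmonella 13 of 14 T cell, 4 of 5 B cell, 5 of 7 NK and cytotoxic, 4 of 10 dendritic and 7 of 11 eosinophil genes were lower, the last with 3 members among them; differences between lists were not tested. Over all genes 17.9% were lower with Salmonella.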

How the data were processed

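The values deposited by the authors were taken as log2 expression, 1 for each of 7480 gene symbols in each of 12 libraries, with 0 zeros. No source states the base. The build Sscrofa11.1, R 3.4.2 and Bowtie are named in the submitters' processing notes, while counting, normalization and any gene filter are not stated. Per the labels' protocols, RNA came from a PAXgene kit and libraries from an Illumina TruSeq kit, and per the series text reads were single and 50 bases long. Depth is unknown, so no counting error is given.

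The values were fitted with limma 3.58.1 (R 4.3.3), with the 12 libraries in 1 fit, 3 group means, no replicate block, and variances moderated with a trend on the mean. No pseudocount or filter was used. Members were also compared by exact two-sided permutation tests. Alternatives were a filter on a mean of at least 5, 16 added on the linear scale, median centring, quantile normalization, no trend, robust moderation, only the groups compared, a replicate block, and leaving out each replicate. Coordinates come from the RefSeq table of Sscrofa11.1, which held all 5 members.

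The members, gene lists, silent set and comparisons were chosen with earlier results of these data known. Named genes were the members, the 3 called genes with the smallest p of each pathway list in each comparison, and the 3 most like each member. Of other cell type lists at most the 2 with the highest mean were to be named, and some lists have none named. Genes of the basophil, eosinophil, dendritic, neutrophil and red cell lists that fall outside this rule, and the neighbours, were named after their values were seen.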

Additional observations from a re-analysis of the deposited data

How the results depend on the processing

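Each comparison was refitted under 16 alternatives, 8 of which left out 1 replicate. The number of members called and the number of all genes called stayed within 1.5 times of the main count in all of them. All 5 members were called lower with Salmonella in each, except that *EPX* was not tested once genes with a mean under 5 were filtered out, which left 4 called with Salmonella and 2 between the treated groups. Over alternatives the fall of *FCER1A* ran from -3.19 to -2.92, of *ALOX15* from -3.06 to -2.07, of *IL5RA* from -1.91 to -1.38, of *CPA3* from -1.45 to -1.05 and of *EPX* from -0.66 to -0.33. For the members, 249 of 252 values, exact tests included, kept their side of the threshold, and the exceptions were those of *CPA3* and *ALOX15* given above. Among all 89 single results, 77 of 1422 values lost a call and 5 gained one. Besides the libraries left out that are given above, choices of processing ended these calls. In sponge plus Salmonella against Salmonella, quantile normalization ended those of *LYN* (-0.36, limma adjusted p = 0.144) and *CPO* (0.0535), fitting without a trend those of *CCR7* (0.0546), *ID2* (0.0552) and *CPO* (0.0863), and fitting only the groups compared those of *CCR7* (0.0570) and *CPO* (0.0879). In Salmonella against control, *MPO* lost its call with only the groups compared (limma adjusted p = 0.0560) and *DUOX1* without a trend (0.0667). In sponge plus Salmonella against control, *CCR7* lost its call with quantile normalization (limma adjusted p = 0.0938) and without a trend (0.0600). The values showed no clear pairing of samples by replicate number: 2 of 12 same-numbered pairs had deviations from their group means correlated above 0.1 (range -0.36 to 0.377), and the own number was the best match in 4 of 24 cases. Since no label ties a library to an animal, this check cannot exclude a pairing. With a replicate block 2371, 1706 and 2907 genes were called in the 3 comparisons in place of 2513, 1873 and 3057, and no member's call changed, while *CD1E* between the treated groups (limma adjusted p = 0.0559), *DUOX1* with Salmonella (0.0618) and *GATA1* with the sponge against control (0.0661) lost theirs. With 4 libraries a group, exact tests cannot go below p = 0.0286, and unknown depth leaves the error of values near silent level unknown.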

Other observations

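The measured genes nearest to each member on its chromosome in Sscrofa11.1 were chosen after the values were seen, and 3 of these 10 were called in any comparison, against 58.0% of all genes, namely *GYG1*, *DYNLL2* and *CHL1*. *APCS* and *CADM3*, on either side of *FCER1A* at 217.0 and 101.9 kb, had group means between 4.53 and 4.99 and were called in none of the 3 comparisons. *CPB1*, 4.9 kb from *CPA3*, was not called either, while *GYG1*, which encodes the glycogen primer glycogenin and lies 89.0 kb on the other side, rose by 1.44 ± 0.15 with Salmonella (SE, n = 4 per group, limma adjusted p = 1.1e-05) and was lower with the sponge than with Salmonella alone (-0.93 ± 0.15, limma adjusted p = 9.99e-04). *PELP1* and *ALOX12*, at 57.7 and 106.0 kb from *ALOX15*, and *MKS1*, 0.3 kb from *EPX*, were not called. *DYNLL2*, 129.7 kb from *EPX*, was lower with Salmonella (-0.92 ± 0.20, limma adjusted p = 0.00268) and with the sponge (-1.08 ± 0.20, limma adjusted p = 8.26e-04) than in control. The neighbours of *IL5RA* were distant, at 2617 kb for *CHL1* and 701.4 kb for *LRRN1*. *CHL1* was lower than in control with Salmonella (-0.57 ± 0.13, limma adjusted p = 0.00370) and with the sponge (-0.77 ± 0.13, limma adjusted p = 4.83e-04). Its group means were 5.20, 4.63 and 4.43 in control, Salmonella and sponge plus Salmonella, all at silent level. *LRRN1* was not called.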
